A study of Mus musculus with 6 samples.

Results

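Hox genes encode homeodomain transcription factors that lie in 4 gene clusters, and the data on them were taken from single-cell RNA sequencing of 6 rhabdoid tumors of mice. The members were taken by a rule on their names. They are every gene whose symbol is Hox followed by a cluster letter from a to d and a paralog number. The mouse annotation holds 39 such genes. Of the 39, 35 were among the 16557 genes listed for at least 1 tumor, and Hoxa6, Hoxd1, Hoxd3 and Hoxd12 for none. The count tables list only genes found in at least 3 cells of a tumor, so a gene that is not listed may still have been present in a cell or a pair of cells. They list 28, 12 and 29 Hox genes for the spinal tumors 1, 2 and 3, 14 for the gland tumor, 11 for the jaw tumor and 27 for the shoulder tumor. The 33 members with at least 10 UMIs (unique molecular identifiers, each standing for 1 captured transcript) over all tumor cells or over all other cells are given below with their values, and only Hoxc12 and Hoxc13 of the listed members had fewer.

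The tumors arose after inducible loss of Smarcb1, which encodes a SWI/SNF chromatin remodeler subunit, in Smarcb1 fl/fl embryos whose mothers had received 1 intraperitoneal dose of 50 mg/kg tamoxifen 6.5 days after mating. The 3 MYC spinal tumors, called spinal 1, 2 and 3, came from the strain labelled Rosa26-cre and were taken at 19, 26 and 17 weeks. The 3 extracranial rhabdoid tumors (eRT), also of the MYC subgroup by their labels, came from the Rosa26-cre strain for 1 tumor, at 17 weeks by the sample labels, and from the strain labelled Sox2-cre for the others, at 29 and 22 weeks. By the study's sample summary both are the tamoxifen-inducible lines, Rosa26-creERT2 and Sox2-creERT2, and not the constitutive Sox2-cre line. The sample summary of the study places them, in this order, at a gland, a jaw and a shoulder, and they are named by these sites. Each eRT site is therefore 1 animal, so that a site, an animal and a library cannot be told apart, and subtype and mouse strain are partly confounded. The Rosa26 promoter drives the recombinase in all tissues and the Sox2 promoter in Sox2-expressing cells, and the study describes recombination in few cells of either inducible model. All cells had been sorted as viable by 7-AAD exclusion.

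During development, Hox genes are switched on along the body axis in the order in which they lie in their cluster, so that low paralog numbers mark the hindbrain and neck, middle numbers the thorax and high numbers the lumbar, sacral and tail regions. The A and D clusters are used a second time along the limb, from the girdle to the digits. Adult mesenchymal cells retain a Hox pattern of their body site, whereas the mesenchyme of the upper and lower jaw derives from neural crest of the first pharyngeal arch, which lacks Hox expression. Some A and B cluster genes are in addition used by blood stem and progenitor cells.

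Promoter sequence is shown for 4 members. Hoxa7 had 34 tumor cell UMIs in the gland tumor, after Hoxa5 with 44. Hoxd9 and Hoxd10 carried many of the Hox UMIs of the jaw tumor, though their levels were higher in spinal 1 and at the shoulder. Hoxa11 was found in the spinal tumors 1 and 3. Each line gives the 250 bases before the RefSeq start site (GRCm38.p6), 5′ to 3′ on the gene's strand. Capitals mark TTTATG, the core of the site bound by the caudal-type Cdx factors, which regulate Hox clusters in the embryo. TGATTNAT, a joint site of Hox and Pbx proteins, was searched as well, both motifs on both strands.
Hoxa7 (chr6:52218574-52218823, minus strand): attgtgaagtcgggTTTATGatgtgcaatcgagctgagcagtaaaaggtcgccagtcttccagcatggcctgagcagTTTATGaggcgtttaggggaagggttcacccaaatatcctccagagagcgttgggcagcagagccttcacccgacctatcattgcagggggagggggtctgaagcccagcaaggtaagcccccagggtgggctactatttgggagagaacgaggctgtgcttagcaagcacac
Hoxa11 (chr6:52245811-52246060, minus strand): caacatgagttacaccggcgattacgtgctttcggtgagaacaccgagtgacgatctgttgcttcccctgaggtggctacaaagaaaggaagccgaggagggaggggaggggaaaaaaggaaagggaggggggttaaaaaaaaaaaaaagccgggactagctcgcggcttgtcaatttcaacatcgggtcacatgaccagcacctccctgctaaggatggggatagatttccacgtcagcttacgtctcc
Hoxd9 (chr2:74697513-74697762, plus strand): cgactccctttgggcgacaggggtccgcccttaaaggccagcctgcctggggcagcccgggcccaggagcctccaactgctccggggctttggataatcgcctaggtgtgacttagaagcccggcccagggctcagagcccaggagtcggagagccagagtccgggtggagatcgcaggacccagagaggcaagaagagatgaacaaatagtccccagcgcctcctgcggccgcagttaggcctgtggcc
Hoxd10 (chr2:74691641-74691890, plus strand): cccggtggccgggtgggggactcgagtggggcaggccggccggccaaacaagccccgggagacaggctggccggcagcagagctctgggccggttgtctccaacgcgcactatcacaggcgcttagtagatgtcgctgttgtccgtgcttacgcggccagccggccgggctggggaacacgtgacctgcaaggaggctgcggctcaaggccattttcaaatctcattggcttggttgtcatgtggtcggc
TTTATG stood in 5 of the 24 Hox promoters given (20.8%), which belong to 22 genes, and in 3536 of 32851 promoters of all genes (10.8%). TGATTNAT stood in 2 of the 24 and in 928 of all (2.82%). These are matches of letters and not measured binding sites. Of the 4 promoters shown, Hoxa7 alone held TTTATG. The promoter of Hoxa5, not shown, held neither motif. The Hox promoters given include none for Hoxc6, Hoxc8, Hoxc9 or Hoxc10, which gave most Hox UMIs of tumor cells.

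Tumor cells were the cells of clusters in which Smarcb1 stood below 0.25 of the level expected from immune-like cells, where at least 10 Smarcb1 UMIs were expected. Clusters named immune-like by their markers were never counted as tumor cells, whatever their Smarcb1 level. A neutrophil-like cluster of 208 cells in eRT, 201 of them in the jaw tumor, lay at 0.1004 with 9.96 UMIs expected. By either rule it stayed among the other cells. Tumor cells numbered 108, 15 and 1647 in spinal 1, 2 and 3 and 68, 205 and 611 in the gland, jaw and shoulder tumors, with 44738 to 8435676 UMIs in all. Smarcb1, the targeted gene, had 0, 0, 22, 3, 2 and 6 UMIs in these cells and 136 to 758 in the other cells of a tumor. Since spinal 3 held 1647 of the tumor cells and spinal 2 only 15, levels in spinal 2 carry wide counting intervals. The Hox genes were left out of the genes that made the clusters. Of the other cells, 1236 to 4234 per tumor were immune-like by their markers. Intervals and limits below cover counting error only.

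Tumor cells of every tumor had a higher summed Hox level than the other cells around them (plot of the summed level in both kinds of cells). Summed over the 35 genes, the level in tumor cells was 1108 CPM (UMIs of a gene per 1000000 UMIs of the same cells) in spinal 1, 469 in spinal 2 and 595 in spinal 3, which makes 724 ± 338 CPM (SD, n = 3 tumors) in MYC spinal tumors. Of the eRT, the gland tumor had 306 CPM, the jaw tumor 68.4 and the shoulder tumor 564, which makes 312.5 ± 248 CPM (SD, n = 3 tumors) in eRT. The jaw tumor was lowest, with a 95% exact Poisson interval of 49.5 to 92.1 CPM that does not overlap those of the other 5 tumors. The shoulder tumor, at 537 to 592 CPM, lay within the range of the spinal tumors.

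In the other cells, the summed level was 6.42, 9.46 and 37.1 CPM in spinal 1, 2 and 3 and 5.24, 6.47 and 43.6 CPM in the eRT of gland, jaw and shoulder. The ratio of tumor to other cells was 172.5 (112 to 281) in spinal 1, 49.6 (28.7 to 82.7) in spinal 2 and 16.01 (14.8 to 17.4) in spinal 3. It was 58.4 (43.2 to 79.7) for the gland tumor, 10.6 (6.13 to 18.7) for the jaw tumor and 12.9 (11.5 to 14.6) for the shoulder tumor. The other cells of spinal 3 and of the shoulder tumor stood highest, and the tumor cells of the jaw tumor lowest.

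**Figure D1:**
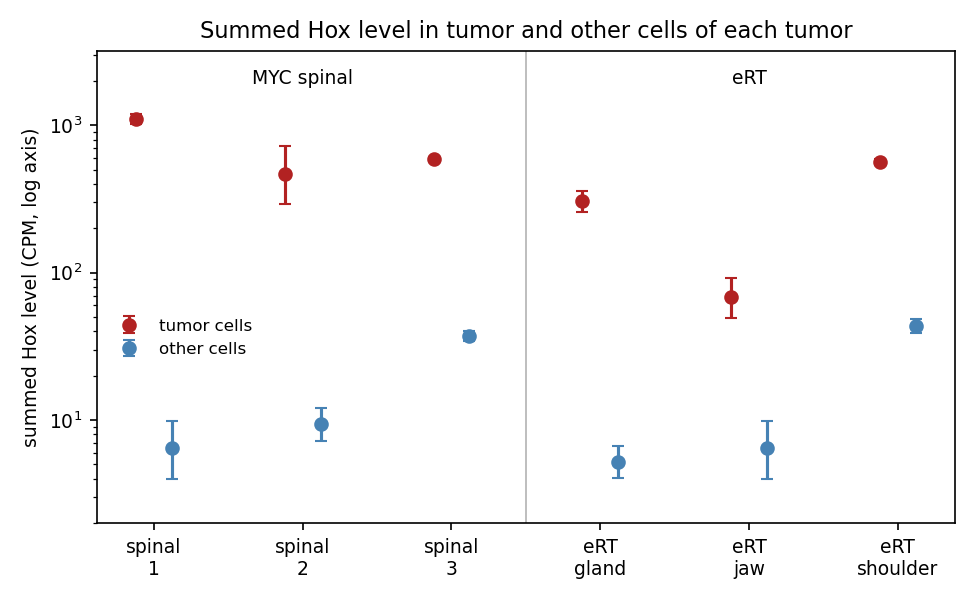
Summed level of the Hox genes (CPM, log axis) in tumor cells (red) and all other cells (blue) of each tumor, with exact 95% Poisson intervals. Tumor cells lie above other cells in all 6 tumors, and the jaw tumor has the lowest tumor cell level, 68.4 CPM.

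At least 1 Hox UMI was found in 86.1% (exact 95% binomial interval 78.1 to 92.0%) of tumor cells of spinal 1, in 8 of the 15 of spinal 2 and in 78.2% of those of spinal 3. The share was 63.2% at the gland, 12.2% (8.05 to 17.5%) in the jaw and 84.6% at the shoulder. In the other cells it was 1.03 to 6.70%. Tumor cells were deeper, with medians of 2049 to 6141.5 UMIs against 915 to 5177, so each cell was also thinned to 1000 UMIs. The share was then 60.1, 33.1 and 40.9% in spinal 1, 2 and 3 and 22.0, 4.73 and 42.5% in the gland, jaw and shoulder tumors, against 0.515 to 2.60% in other cells. Cells below 1000 UMIs were left out, 2, 2, 0, 0, 22 and 0 tumor cells and 0 to 3155 other cells of a tumor. The jaw tumor was lowest before and after thinning, whereas the gland tumor lay above spinal 2 before it and below spinal 2 after it.

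The median number of different Hox genes per tumor cell was 4 in spinal 1, 2 in spinal 3 and at the shoulder, 1 in spinal 2 and at the gland, and 0 in the jaw. At least 3 different Hox genes were found in 72.2% of tumor cells of spinal 1, 37.4% of spinal 3, 34.9% of the shoulder tumor, 23.5% of the gland tumor and 1.46% of the jaw tumor. The largest number in 1 cell was 11, in spinal 1 and in spinal 3. Over all tumor cells of a tumor, 28, 7 and 29 Hox genes had a UMI in spinal 1, 2 and 3, and 12, 10 and 26 in the gland, jaw and shoulder tumors.

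Each gene was compared between tumor cells and other cells over the 6 tumors, with UMIs summed per tumor and kind of cell and each tumor as a block. Of the 39 Hox genes, 21 were higher in tumor cells at an adjusted p under 0.05 (edgeR's quasi-likelihood test, Benjamini-Hochberg adjustment over all genes), and none was lower, beside 13.8% of the 12334 genes tested that were higher. Only 24 Hox genes passed the filter on low counts, and since most passed through the tumor cells, the share among those tested is not read as a result. Without the factors of the TMM normalization the median over all genes tested moved from -0.054 to 0.153, 2174 of 3824 called genes in place of 1696 of 3649 were higher, and the number of Hox genes called was 21 again. Over the 35 members with at least 1 UMI, fitted without the filter, the median log2 fold change was 3.97, against -0.06 over all 16556 genes. DESeq2 called 18 of the 24, beside 1903 of 12334 genes that were higher. Leaving out 1 tumor at a time called 14 to 21. The lowest count was without spinal 3, 14 of 20 tested, beside 1245 of 11986 genes.

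Of the Hox genes, Hoxc8, Hoxc6 and Hoxc10 had the lowest p-values in this comparison (plot of fold changes by gene). Hoxc8 had a log2 fold change of 4.85 ± 0.57 (SE, adjusted p = 0.000221), Hoxc6 of 4.73 ± 0.58 (adjusted p = 0.000411), Hoxc10 of 5.62 ± 0.77 (adjusted p = 0.000518) and Hoxc9 of 5.61 ± 0.91 (adjusted p = 0.00183), all by edgeR's test. These 4 C genes passed the threshold under each of the 19 alternatives. Hoxd10, at 5.95 ± 0.82 (adjusted p = 0.000779), and Hoxd9, at 5.84 ± 0.90 (adjusted p = 0.00138), passed in all alternatives in which they were tested. The 3 tested genes that were not called were Hoxb4, at 1.02 ± 0.61 (adjusted p = 0.246), Hoxb8, at 3.08 ± 1.06 (adjusted p = 0.0696), and Hoxc11, at 3.67 ± 1.25 (adjusted p = 0.0773). The calls of Hoxa2, Hoxa9 and Hoxa11 were lost with DESeq2.

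Within the subtypes, 16 Hox genes were higher in tumor cells of MYC spinal tumors, where 5.63% of 11595 genes were, and 10 in eRT, where 8.18% of 10923 genes were (edgeR, as above). The MYC spinal count rests on all 3 tumors. Without spinal 2 it was 0, although 18 of 19 tested Hox genes had an unadjusted p under 0.05 (edgeR). None of all 11562 genes was called in that fit. Without spinal 1 the count was 7 of 11 tested, beside 396 of 10947 genes that were higher. Without spinal 3 it was 6 of 6 tested, beside 236 of 9309 genes. The MYC spinal count was also 0 at clustering resolution 0.4, where spinal 2 had 328 cells in tumor clusters in place of 15. In eRT the count was 1 of 2 tested without the shoulder tumor, beside 409 of 9240 genes. Without the jaw tumor it was 7 of 12 tested, beside 762 of 11179 genes. Without the gland tumor it was 10 of 11 tested, beside 853 of 10083 genes.

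**Figure D2:**
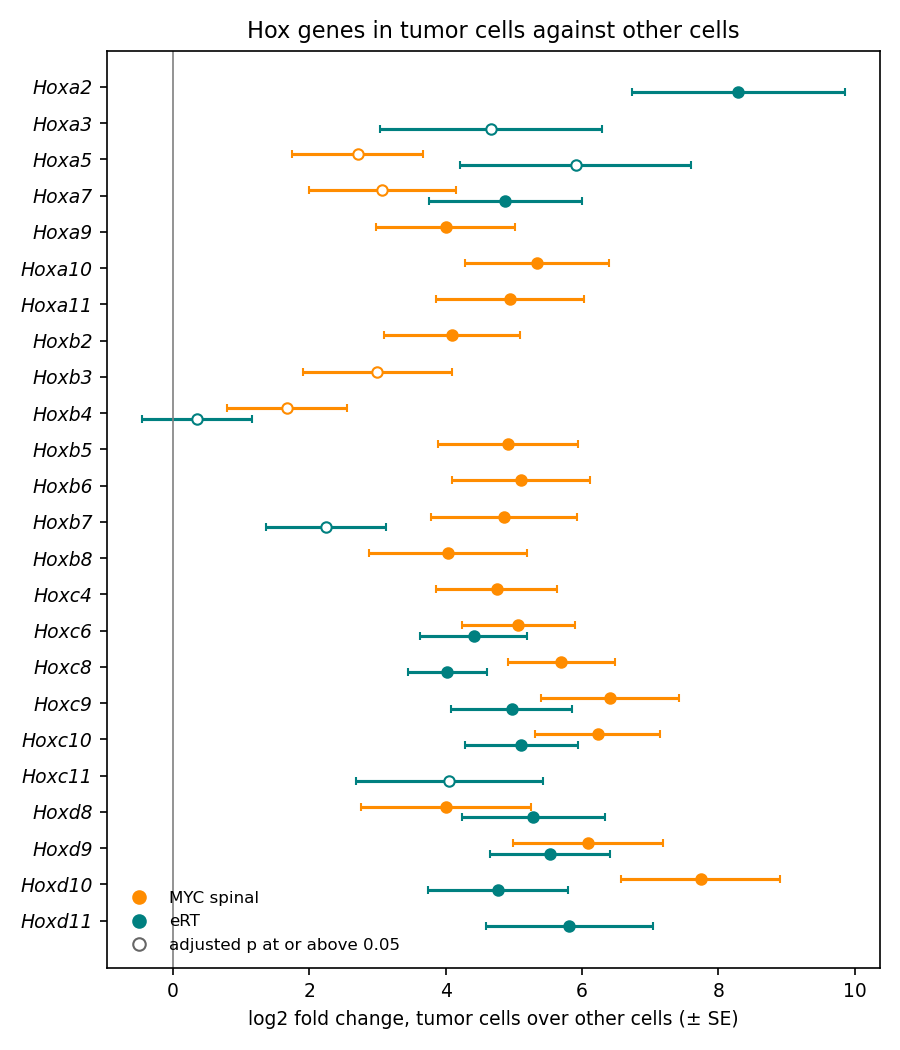
Log2 fold change of each tested Hox gene in tumor cells over other cells (± SE) in MYC spinal tumors (orange) and eRT (teal), with open symbols where the adjusted p is 0.05 or more. All points lie above 0, and Hoxb4 lies closest to it in eRT, at 0.36.

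The C cluster lies on chromosome 15, from Hoxc13 at 102921103 to the end of Hoxc4 at 103036852 (GRCm38, GENCODE). Its members Hoxc6, Hoxc8, Hoxc9 and Hoxc10 together gave 4676 of the 7489 Hox UMIs of tumor cells (62.4%). Since 3′ tags count transcript ends, UMIs were not divided by gene length, and shares between genes are shares of captured transcripts. 

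Hoxc9, a gene of thoracic identity, reached 161, 112 and 118 CPM in the tumor cells of spinal 1, 2 and 3, at 25.6 CPM at the gland and at 122 CPM at the shoulder, and was not listed for the jaw tumor. Hoxc10, which acts at lumbar levels and in the hindlimb, stood at 175, 89.4 and 109 CPM in the spinal tumors and at 27.8, 6.36 and 122 CPM in the gland, jaw and shoulder tumors. The spinal and shoulder tumors were thus high for both genes, the gland tumor was lower and the jaw tumor lowest. In other cells, Hoxc9 stood at 0 to 7.10 CPM and Hoxc10 at 0 to 7.08 CPM, with the highest values in spinal 3 and the shoulder tumor. In spinal 1, where other cells held no Hoxc9 UMI, tumor cells were at least 175-fold higher, taking 3 counts as the limit.

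Hoxc8, which patterns the lower thorax, stood at 115, 67.1 and 73.4 CPM in the spinal tumors and at 17.1, 4.77 and 61.1 CPM in the gland, jaw and shoulder tumors. Hoxc6, a thoracic gene with a role at the forelimb level, stood at 87.4 and 88.2 CPM in spinal 1 and 3, was not listed for spinal 2, and stood at 17.1, 4.77 and 49.4 CPM in the 3 eRT. For both genes every spinal tumor that lists them lay above every eRT in value, with spinal 2 left out for Hoxc6. For Hoxc8, spinal 2 rests on 3 UMIs, and the counting intervals of spinal 2 and 3 overlap that of the shoulder tumor. Hoxc8 and Hoxc10 were the only members with UMIs in the tumor cells of all 6 tumors.

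The anterior members were lower. Hoxc4, a cervical gene, stood at 19.2, 44.7 and 19.6 CPM in the spinal tumors, on 11, 2 and 165 UMIs, and at 7.94 CPM at the shoulder. Hoxc5, its neighbor, had 20 UMIs in spinal 3 and 4 at the shoulder; its annotated transcripts share the region of Hoxc6, Hoxc8, Hoxc9 and Hoxc10 on the same strand, so its UMIs are uncertain. Hoxc11, a sacral gene, was found in eRT only, with 3 UMIs at the gland and 11 at the shoulder. The most posterior members, Hoxc12 and Hoxc13, had 5 and 3 UMIs in spinal 1 and none in the tumor cells of the other 5 tumors.

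The D cluster, on chromosome 2 from 74668310 to 74765142, was listed for 5 of the 6 tumors. Hoxd9, which acts along the lumbar axis and in the limb, stood at 90.9, 67.1 and 6.16 CPM in spinal 1, 2 and 3 and at 15.9 and 30.7 CPM in the jaw and at the shoulder. Hoxd10, its limb and lumbar neighbor, stood at 59.4, 44.7 and 0.830 CPM in the spinal tumors and at 11.1 and 19.0 CPM in the jaw and at the shoulder. The gland tumor had none. Among the spinal tumors, spinal 3 was therefore the one with little Hoxd, although it gave the most Hox UMIs. The D genes made up 20.7 (17.6 to 24.0)% of Hox UMIs in spinal 1 and 2.11 (1.73 to 2.55)% in spinal 3.

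In the jaw tumor the D genes made up 65.1 (49.1 to 79.0)% of the 43 Hox UMIs of tumor cells. There Hoxd8, Hoxd9, Hoxd10 and Hoxd11 had 6, 10, 7 and 4 UMIs in tumor cells and 1, 0, 0 and 0 in other cells, which had 3243606 UMIs against 629070. Tumor cells were at least 17.2-fold higher for Hoxd9 and 12.03-fold for Hoxd10 by the same limit. Hoxd8, expressed along the trunk, stood at 22.7 and 3.08 CPM in spinal 1 and 3, 9.54 CPM in the jaw and 10.7 CPM at the shoulder. Hoxd11, a gene of the sacral region and the forearm, stood at 17.5, 0.830, 6.36 and 9.67 CPM in the same tumors. Hoxd4, a neck gene, had 6, 1 and 8 UMIs in spinal 1, the jaw and the shoulder tumor. Hoxd13, which patterns digits and the terminal body axis, had 16 UMIs in spinal 1 and 14 in spinal 3 and was not listed for any eRT.

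The A cluster, on chromosome 6 from 52155590 to 52260880, split at Hoxa9. Hoxa5, which acts at the border of neck and thorax and in lung and foregut mesenchyme, stood at 94.0 CPM at the gland, against 10.5 and 7.35 CPM in spinal 1 and 3 and 6.91 CPM at the shoulder. Hoxa7, a thoracic gene, stood at 72.6 CPM at the gland, 19.2 and 6.05 CPM in spinal 1 and 3, 6.36 CPM in the jaw and 21.4 CPM at the shoulder. The gland tumor was thus highest for both, and neither had a UMI in tumor cells of spinal 2. A genes made up 67.8 (59.5 to 75.4)% of Hox UMIs in the gland tumor and 8.52 to 15.9% in spinal 1, spinal 3, the jaw and the shoulder tumor.

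From Hoxa9 on, the A genes were almost confined to the spinal tumors 1 and 3. Hoxa9, a lumbar gene also used in blood progenitors, had 13 and 127 tumor cell UMIs there (22.7 and 15.1 CPM) and was not listed for any eRT. Hoxa11, a gene of the sacral region, forearm and uterus, had 9 and 124 UMIs (15.7 and 14.7 CPM) and was likewise not listed for an eRT. Hoxa10, its lumbar neighbor, stood at 80.4 and 21.7 CPM in spinal 1 and 3 and was also found at the shoulder, at 7.60 CPM. Hoxa13, the gene of digits and hindgut, had 10 UMIs in spinal 3 alone.

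The anterior A genes were found at low levels at the gland, at the shoulder and in spinal tumors. Hoxa2, which sets the identity of the second pharyngeal arch, had 11, 8 and 14 UMIs in tumor cells of spinal 1, the gland and the shoulder tumor and none in other cells, which makes tumor cells at least 21.0-, 69.6- and 12.8-fold higher. Hoxa3, which acts in thymus and neck development, had 4, 3, 5 and 14 UMIs in spinal 1, spinal 3, the gland and the shoulder tumor. Hoxa4 had 1 to 4 UMIs in each of 4 tumors. The annotated span of Hoxa3 includes Hoxa4, Hoxa5 and Hoxa6 on the same strand, so the split of UMIs between them is uncertain.

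The B cluster, on chromosome 11 from 96194316 to 96368256, was expressed in spinal 1, spinal 3 and the shoulder tumor and almost absent from the gland and jaw tumors. Hoxb7, a thoracic gene, stood at 35.0 and 11.6 CPM in spinal 1 and 3 and 38.7 CPM at the shoulder. Hoxb2, a hindbrain gene, stood at 17.5, 24.3 and 12.1 CPM in the same 3 tumors. Hoxb6, its thoracic relative, stood at 35.0 and 23.1 CPM in spinal 1 and 3 and 2.07 CPM at the shoulder. Hoxb3, Hoxb5 and Hoxb8 stood at 1.73 to 15.1 CPM in these 3 tumors, and Hoxb5 had 2 UMIs in spinal 2. Hoxb9 and Hoxb13 were found in spinal 3 alone, the tumor with the most tumor cell UMIs, with 69 and 18 UMIs. Hoxb13, a gene of the tail bud and prostate, stood at 2.13 CPM there. In spinal 1, spinal 2, the gland and the jaw tumor, 3 counts stand for 4.77 to 67.1 CPM.

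In tumor cells of the gland and jaw tumors the whole B cluster gave 2 and 1 UMIs, or 4.27 and 1.59 CPM, beside 3.93 and 2.77 CPM in their other cells, with overlapping intervals. Hoxb4, which promotes the self-renewal of blood stem cells, had more UMIs in other cells than in tumor cells over all 6 tumors (160 against 106). Its level was 21.0, 0 and 6.76 CPM in tumor cells of the spinal tumors and 4.27, 0 and 12.1 CPM in eRT, and at 1.53 to 4.93 CPM in the other cells of all 6 tumors. Hoxb1, a hindbrain gene, had 1 UMI in tumor cells and 10 in other cells, whose total UMIs were larger in every tumor.

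**Figure D3:**
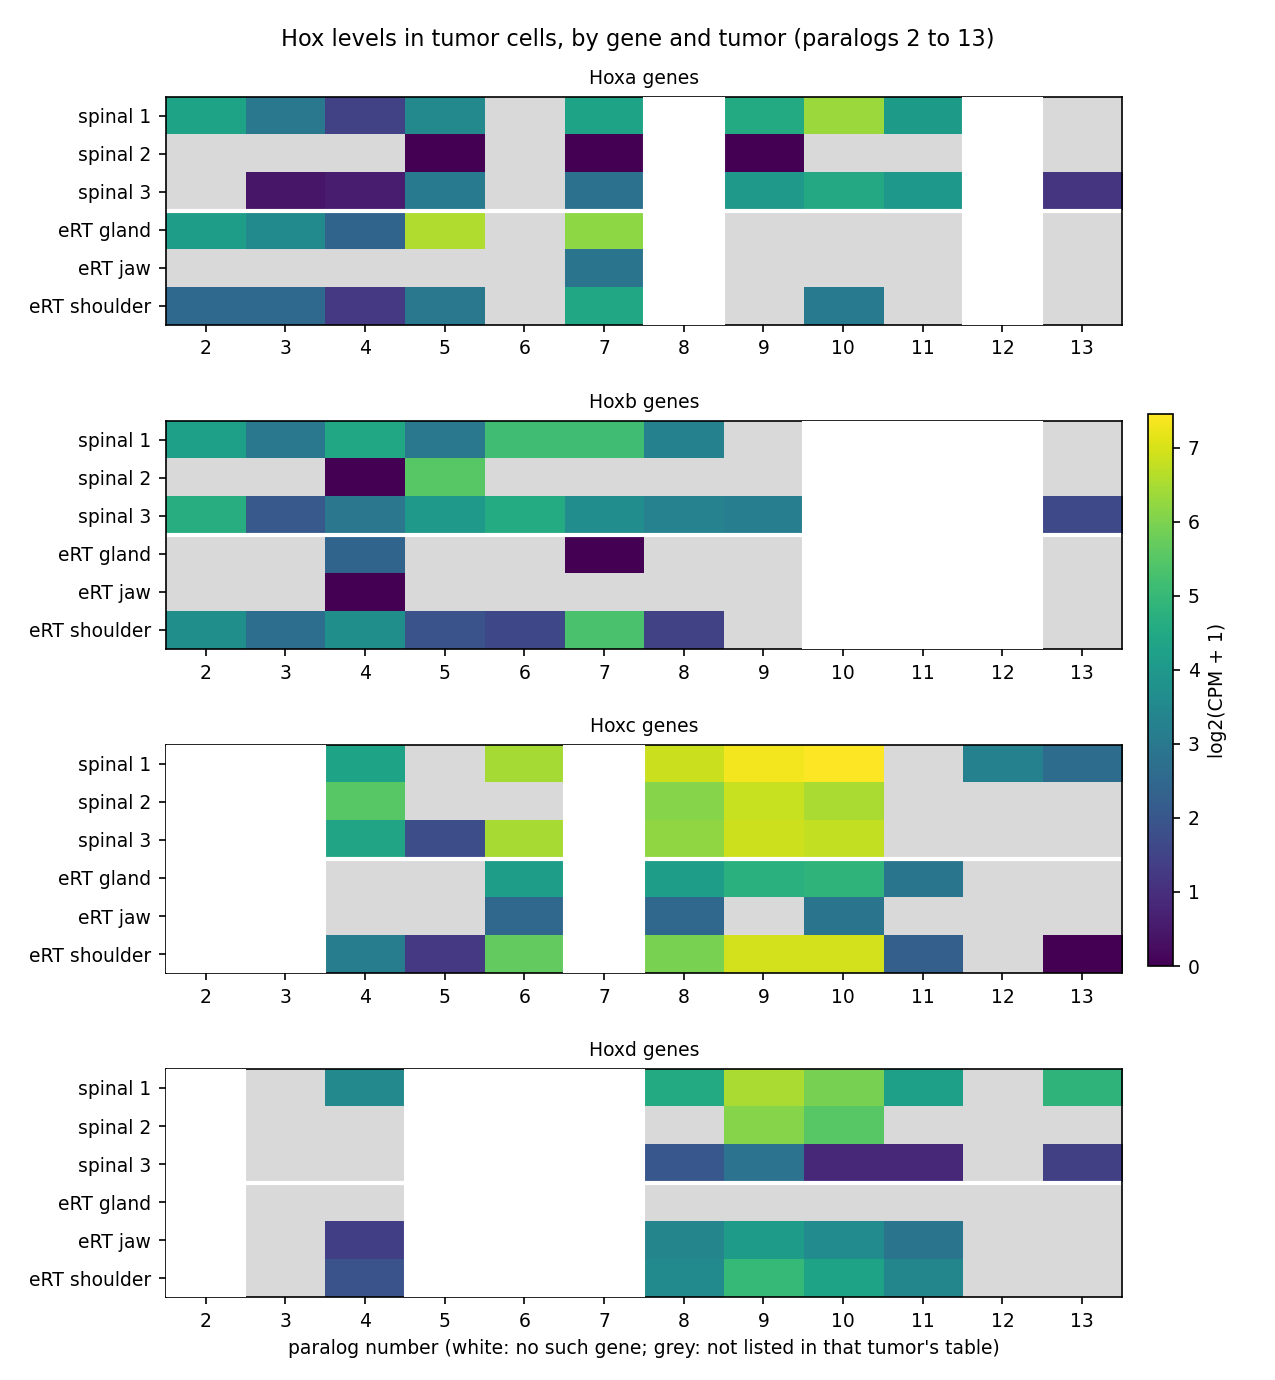
Level of the Hox genes of paralogs 2 to 13 in the tumor cells of each tumor, as log2(CPM + 1), with a panel for each gene cluster and genes ordered by paralog number. Grey marks a gene that the tumor's table does not list. Hoxc8 and Hoxc10 are found in all tumors, Hoxd genes are not listed for the gland tumor, and paralogs 12 and 13 are found in spinal 1 and 3 alone. Depth differs between tumors, so low levels can be missed in spinal 2, the gland and the jaw tumor.

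Paralogs 11 to 13 gave 6.78 (4.95 to 9.03)% of Hox UMIs in spinal 1, 3.45 (2.96 to 3.99)% in spinal 3, 2.10 (0.435 to 6.01)% at the gland, 9.30 (2.59 to 22.1)% in the jaw and 2.39 (1.71 to 3.25)% at the shoulder. In eRT these were Hoxc11 and Hoxd11 only. Paralogs 12 and 13 had UMIs in the tumor cells of 2 of 3 spinal tumors and of no eRT. In spinal 3, Hoxa13 and Hoxb13 stood at 1.19 and 2.13 CPM, whereas 3 counts stand for 6.41 CPM at the gland and 4.77 CPM in the jaw. Absence of such levels from these eRT cannot be told from low depth. In spinal 1, Hoxd13 stood at 28.0 CPM, and at the shoulder 3 counts stand for 1.04 CPM. With 3 tumors against 3, an exact two-sided permutation test cannot go below 0.10, and the third spinal tumor had 44738 UMIs, at which 3 counts stand for 67.1 CPM. Paralogs 5 to 8 gave 65.7 (57.3 to 73.5)% of Hox UMIs at the gland and 23.8 to 40.2% elsewhere, and paralogs 9 and 10 gave 17.5% at the gland and 46.9 to 66.7% elsewhere.

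**Figure D4:**
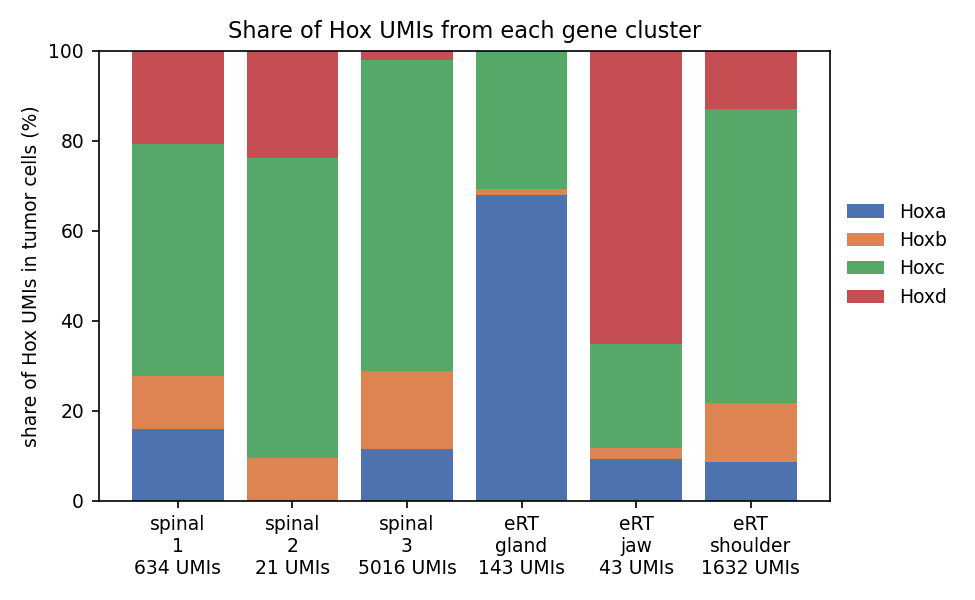
Share of the Hox UMIs of tumor cells (%) that comes from each gene cluster, by tumor, with the number of UMIs below each bar. Hoxc leads in the spinal and shoulder tumors (51.6 to 69.0%), Hoxa at the gland (67.8%) and Hoxd in the jaw (65.1%).

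Similarity of the Hox patterns was described by the overlap of 2 tumors' shares, which sums over the 35 genes the smaller of both shares of Hox UMIs. The shoulder tumor overlapped by 76.9% with spinal 1 and by 72.1% with spinal 3, as much as these 2 spinal tumors with each other (71.4%). Spearman's rank correlation of the shares ordered the pairs otherwise. It was 0.721 and 0.49 for the shoulder tumor with spinal 1 and 3, beside 0.599 for these 2 spinal tumors with each other. For the shoulder tumor with the jaw and the gland tumor it was 0.52 and 0.474. The gland tumor overlapped by 23.1 to 37.9% with the other 5 tumors and the jaw tumor by 26.1 to 43.1%. The tumors share no library, but the overlaps of spinal 2 and the jaw tumor rest on 21 and 43 UMIs.

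Within the gland tumor, the clusters of tumor cells differed in their Hox genes (plot of Hox levels by cluster). The 37 cells of cluster 18, which is led by the tight junction genes Cldn3 and Cldn4 and held 3 epithelial beside 3 fibroblast markers, had 26 Hoxa5 and 25 Hoxa7 UMIs but 1 UMI of Hoxc6 to Hoxc10 together. The 19 cells of cluster 2, with 7 fibroblast markers, had 17 Hoxa5 and 5 Hoxa7 UMIs, and 8, 7, 12 and 13 UMIs of Hoxc6, Hoxc8, Hoxc9 and Hoxc10. All but 1 of the 41 UMIs of these 4 genes in the tumor cells of the gland tumor thus came from 19 of 68 cells. Hoxc10 stood at 71.1 CPM (37.9 to 122) in this cluster and at 0 (up to 16.03) CPM in the former. Both clusters come from 1 animal, so this is a description with no test.

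In the jaw tumor, 54 tumor cells in cluster 2, with 7 fibroblast markers, held 39 of the 43 Hox UMIs, 118 (83.8 to 161) CPM, with a UMI in 40.7% of cells. In cluster 11, which held 4 fibroblast markers and is led by BC048546, Ctla2a and Gap43, 149 cells held 4 UMIs, 13.9 (3.79 to 35.6) CPM, with a UMI in 2.01% of cells, and the remaining 2 tumor cells held none. The interval of cluster 11 overlaps the 4.01 to 9.90 CPM of the jaw tumor's other cells. At the shoulder the intervals of the same 2 clusters overlapped, with 572 (543 to 602) CPM in 542 cells and 506 (436 to 585) CPM in 69 cells. In spinal 3 a cluster of 96 cells led by Bex1, Efemp1 and Cldn6 stood at 925 (853 to 1002) CPM, above the 592 (575 to 610) CPM of the main cluster of 1372 cells, and a cluster of 179 cells with few UMIs per cell stood at 95.5 (67.6 to 131) CPM.

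**Figure D5:**
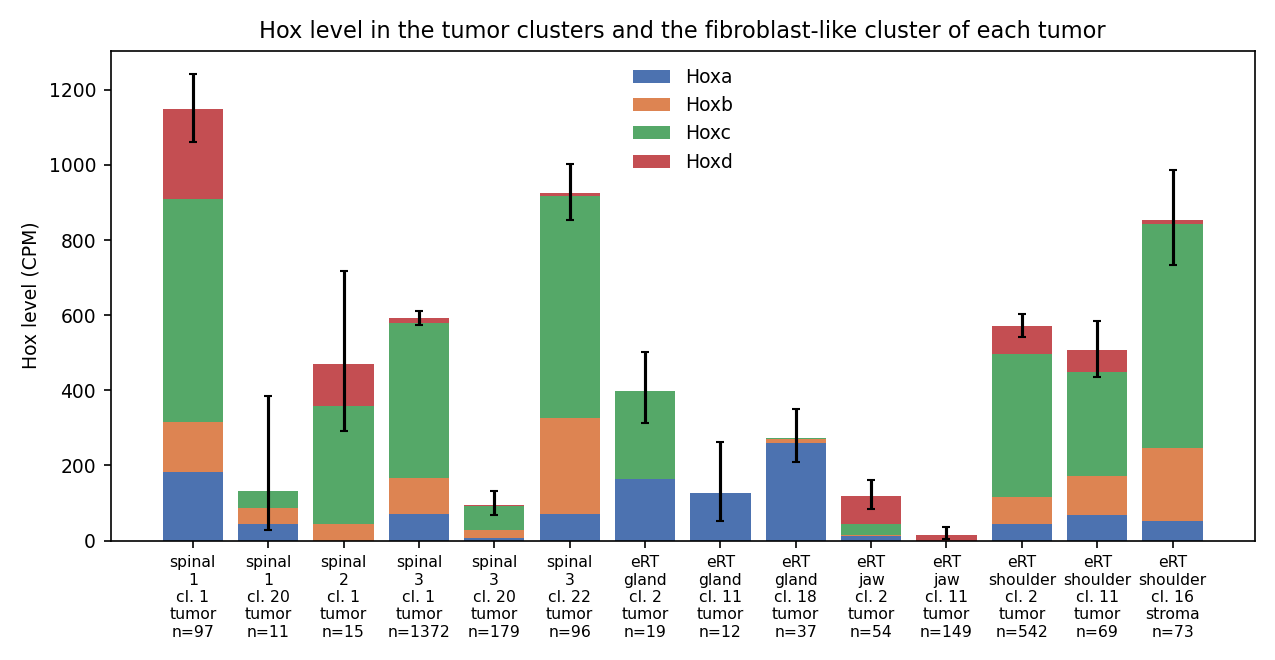
Hox level (CPM) in each tumor cluster with at least 10 cells of a tumor and in the fibroblast-like cluster of the shoulder tumor, divided by gene cluster, with exact 95% Poisson intervals of the sum. The Hoxc part of the gland tumor lies mostly in cluster 2, and the fibroblast-like cells at the shoulder (853 CPM) carry mostly Hoxc and Hoxb, with 2 Hoxd UMIs.

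Hox UMIs were also found in some clusters of other cells. At the shoulder, 73 fibroblast-like cells stood at 853 (734 to 986) CPM of Hox, with a UMI in 84.9% of cells. Their cluster, 79 cells over all eRT, held Smarcb1 at 0.335 of the level expected, on 4 UMIs. Its leading Hox genes at the shoulder were Hoxc10, Hoxc9, Hoxc6 and Hoxc8, as in the tumor cells of the same tumor, with 129 Hoxc and 2 Hoxd UMIs of 184. The shoulder tumor cells had 12.9 (11.3 to 14.7)% of Hox UMIs from D genes. Counted as tumor cells, at a Smarcb1 limit of 0.5, these cells raised the number of Hox genes called in eRT from 10 to 13, while the genes called higher in all rose from 894 of 10923 to 1182 of 11007.

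In spinal 2, blood progenitor-like cells held part of the Hox UMIs of other cells. Clusters 8 and 12, named by their progenitor markers, and cluster 9, led by the basophil genes Mcpt8 and Prss34, held 37 of the 61 Hox UMIs of its other cells, of which 25 were Hoxa7 and Hoxa9. Hoxa9 had 13 UMIs in other cells of spinal 2, or 2.02 CPM. Its 15 tumor cells held none, with an upper limit of 82.5 CPM, so no difference can be read from them. Hoxb4 had 160 UMIs in other cells over all tumors and was the leading Hox gene, among others, in clusters 0 and 2 of spinal 3, in the osteoclast-like cluster 4 of the gland tumor (10 UMIs) and in the macrophage-like clusters 0 and 1 of the shoulder tumor (18 and 10 UMIs).

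In spinal 3, 208 cells of clusters 9 and 23 held 444 of the 659 Hox UMIs of other cells, at 363 CPM, with Hoxc9, Hoxc10, Hoxc6 and Hoxc8 in the lead. These cells also held Angptl7, whose level in the tumor cells of this tumor was 2169 CPM, at 1288 and 878 CPM and the leukocyte gene Tyrobp at 1043 and 1972 CPM, and the 86 osteoclast-like cells of cluster 23 had 2.61 times the median UMIs of their own tumors (84 were in spinal 3). Without both clusters, the other cells of spinal 3 stood at 13.01 CPM, and 18 Hox genes in place of 16 were called in MYC spinal tumors, beside 799 of 11480 in place of 653 of 11595 genes in all. At the shoulder, cluster 16 and 50 cells of cluster 5, led by the cell cycle genes Mybl2 and Bub1, held 257 of 345 UMIs, and the remaining other cells stood at 11.8 CPM. The part of doublets and free RNA in these counts was not tested.

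The immune-like cells of the same libraries served for comparison, and those of spinal 3 include the 84 cells of cluster 23. Hoxc6, Hoxc8, Hoxc9 or Hoxc10 was found in 76.9, 40.0 and 68.3% of tumor cells of spinal 1, 2 and 3 and in 0.235, 0.0709 and 3.02% of their immune-like cells. It was found in 19.1, 2.93 and 68.7% of tumor cells in the gland, jaw and shoulder tumors and in 0.310, 0.243 and 0.426% of immune-like cells there. The share in tumor cells lay above that in immune-like cells in every tumor, and in the jaw tumor the intervals were 1.08 to 6.26% and 0.0501 to 0.708%, with medians of 2049 and 1272.5 UMIs per cell.

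Between subtypes, no Hox gene differed at an adjusted p under 0.05 in tumor cells of eRT against MYC spinal tumors, where 0.0% of 5743 genes were called by edgeR, and none of the Hox genes, beside 199 of all genes, had an unadjusted p under 0.05. In the alternatives no Hox gene was called either, but 0 to 12 had an unadjusted p under 0.05. Without the filter on low counts these were 12 of 35, beside 1191 of all 15512 genes (edgeR). Without the shoulder tumor they were 8 of 11, beside 236 of 6456 genes. With the mouse strain as a covariate they were 7 of 20, beside 272 of 8760 genes. DESeq2 called 20 of all genes and no Hox gene. Only 8 Hox genes passed the filter. Hoxa7 was 1.84 ± 0.84 (SE) higher in eRT on the log2 scale and Hoxc4 2.11 ± 0.92 lower, both with an adjusted p of 0.9996. The other 6, Hoxc6, Hoxc8, Hoxc9, Hoxc10, Hoxd9 and Hoxd10, lay between -0.80 and -1.28 with SEs of 0.73 to 1.44. The difference of the tumor cell effect between subtypes was not called for a Hox gene either, beside 0.0% of 12334 genes (edgeR). By the same test, 0 of 24 Hox genes and 295 of all genes had an unadjusted p under 0.05. Without spinal 3 these were 6 of 20 Hox genes, beside 691 of 11986 genes. DESeq2 called 3 of all genes and no Hox gene. These comparisons hold 3 tumors a group, whose summed levels differed from 68.4 to 564 CPM within eRT alone.

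Hox proteins bind DNA with TALE cofactors, the Pbx, Meis and Pknox proteins, and all 9 genes of this list had at least 10 tumor cell UMIs. Against other cells in 6 tumors, 4 were higher, 1 was lower and 4 were not called or not tested, beside 29.6% of all genes called in either direction (edgeR). Meis2 was 4.61 ± 0.90 higher (log2, SE, adjusted p = 0.00476), with 248, 0 and 32.8 CPM in tumor cells of spinal 1, 2 and 3 and 23.5, 11.1 and 10.4 CPM in the gland, jaw and shoulder tumors. Meis1, Meis3 and Pbx3 were higher by 3.01, 1.30 and 2.10, and Pknox1 was lower by 1.69. Pknox2 was listed for the shoulder tumor alone, with 26 UMIs.

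Of 17 regulators of Hox clusters, 14 were listed for a tumor and 11 tested, of which 1 was higher and 2 were lower in tumor cells, beside 29.6% of all genes called in either direction. Rarg, a retinoic acid receptor, was higher by 1.58 ± 0.30 (adjusted p = 0.00310), and the histone demethylase gene Kdm6b was lower by 1.91 ± 0.29 (adjusted p = 0.000986, edgeR). Kmt2a, which maintains Hox expression, stood at 29.4 to 65.1 CPM in 5 tumors and had no UMI in spinal 2. Aldh1a2, which makes retinoic acid, had 29 tumor cell UMIs at the gland (62.0 CPM) and 6 in spinal 3, and was not listed for the others. Cyp26a1, which degrades it, had 24 of 2895949 tumor cell UMIs and 85 of 7910969 other cell UMIs at the shoulder. Over the 6 tumors it was not called (adjusted p = 0.733, edgeR). The caudal gene Cdx2 had 3 UMIs at the gland, and Cdx1 and Cdx4 were listed for no tumor.

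Of 11 noncoding genes of the Hox clusters, 5 were listed and tested and 3 were higher in tumor cells, beside 13.8% of all genes. Genes of low counts can pass the filter through the tumor cells alone. As for the Hox genes, the share among those tested is therefore not read as a result. Hoxd3os1 was higher by 5.55 ± 0.84 (adjusted p = 0.00185), with 15, 4, 13 and 22 tumor cell UMIs in spinal 1, spinal 3, the jaw and the shoulder tumor, the 4 tumors with Hoxd8. Hoxb3os, with 4, 25 and 18 UMIs in spinal 1, spinal 3 and the shoulder tumor, was found in the same tumors as Hoxb3. Hotairm1, from the anterior end of the A cluster, was found in all 6 tumors, with 4.77 to 53.4 CPM and the highest level at the gland, and was higher by 1.70 ± 0.52 (adjusted p = 0.0320, edgeR). The strand setting of the counts is not given in the sources used here, so UMIs of antisense genes and of the Hox genes they overlap are uncertain.

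Genes of head and jaw position were found in tumors of several sites. Of 22 such genes, 15 were listed and 7 tested, of which 6 were higher in tumor cells and none lower, beside 13.8% of all genes that were higher. Because of the filter on low counts, this share among tested genes is not read as a result. Msx1 was tested and not called (adjusted p = 0.202, edgeR). Lhx8, a gene of jaw and tooth mesenchyme, was higher by 6.39 ± 0.66 (adjusted p = 0.000182) and stood at 0, 112 and 1.42 CPM in the spinal tumors and at 59.8, 54.0 and 134 CPM in the gland, jaw and shoulder tumors. Dlx1 and Dlx2, which pattern the arches, stood at 14.3 and 11.1 CPM in the jaw, 14.96 and 27.8 CPM at the gland and 10.7 and 24.7 CPM in spinal 3. Alx1, a gene of frontonasal mesenchyme, was found at the gland (40.6 CPM) and the shoulder (3.80 CPM).

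Of 13 genes of limb and girdle position, 12 were listed and 6 tested, and beside 13.8% of all genes 3 were higher in tumor cells: Pitx1, Shox2 and Tbx18 (log2 4.54, 4.04 and 5.37, adjusted p = 0.00215, 0.0176 and 0.00695, edgeR). Here too the share among tested genes is not read as a result. Pitx1, a hindlimb gene, stood at 132 CPM in spinal 3 and 38.7 CPM at the shoulder and was not listed for the other 4. Tbx5, the forelimb gene, was listed for no tumor. Shox2, which acts in the upper limb, stood at 19.7 CPM in spinal 3 and 27.8, 23.8 and 9.67 CPM in eRT. Meox1, a somite gene, stood at 112 CPM at the shoulder, 38.5 CPM at the gland and 7.95 CPM in the jaw. Its difference from other cells missed the threshold over the 6 tumors (adjusted p = 0.0506, edgeR). Within eRT Meox1 was called, at a log2 fold change of 4.55 (adjusted p = 0.0113, edgeR). Isl1 was found in tumor cells of spinal 1 alone, with 19 UMIs.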

How the data were processed

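Single-cell RNA of 6 tumors had been captured with the 10x 3′ v2 chemistry. The authors aligned reads to mm10 with Cell Ranger 2.0.2 and deposited raw UMI counts per gene and cell, 1 table per tumor, which list genes found in at least 3 cells. All columns were used. Cells needed 200 genes or more and a mitochondrial share of UMIs up to 25% (22163 cells left, 3841706 to 26184224 UMIs per tumor) and clustered per subtype with Seurat 5.3.0 (2000 variable genes without Hox genes, 30 dimensions, resolution 0.8). Clusters were named "-like" from fixed markers. Clusters not named immune-like, with at least 10 expected Smarcb1 UMIs and a level below 0.25 of that expected, were tumor cells. Scrublet marked 21 cells (0.0948%), which shows that it had not worked, so no cell was removed as a doublet. Column names are running numbers, so cell barcodes shared between libraries could not be counted.

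Counts were summed per tumor and kind of cell and tested with edgeR 4.0.16 (quasi-likelihood test, TMM, filter on low counts, Benjamini-Hochberg adjustment over all genes) in R 4.3.3, with the tumor as a block, since both kinds of cells come from the same animal. Each tumor is 1 animal. The step was tested on simulated data. Alternatives were DESeq2 1.42.0, other filters, clusterings, Smarcb1 limits, comparison cells, no block, and leaving out each tumor, with 1 comparison set and the clusters on their own added after the data were seen. Named were members with at least 10 UMIs in tumor or other cells, and genes of 5 lists with at least 10 in tumor cells. Members and lists were chosen with earlier results of these data known. Intervals are exact (Poisson or binomial, 95%), and a count of 0 was set to 3 counts per library for bounds. Promoters are from RefSeq (GRCm38.p6), gene positions from GENCODE (GRCm38). A few genes that met the rule for naming are not reported here, though counts and sums include them.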

Additional observations from a re-analysis of the deposited data

How the results depend on the processing

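The counts of Hox genes called in tumor cells against other cells moved by more than 1.5 times in 8 fits. Among these was every fit of MYC spinal tumors that left out 1 tumor. In these fits 11, 19 and 6 Hox genes were tested, without spinal 1, 2 and 3. Without the replicate block, which drops the pairing of both kinds of cells of a tumor, 5 in place of 21 were called over 6 tumors (6 passed the filter), 5 in place of 16 in MYC spinal tumors and 1 in place of 10 in eRT. At clustering resolution 0.4, 0 were called in MYC spinal tumors, where 19 of 20 had an unadjusted p under 0.05. Leaving out 1 tumor at a time gave 14 to 21 over 6 tumors, 0 to 7 in MYC spinal tumors and 1 to 10 in eRT, a summed Hox CPM in tumor cells of MYC spinal tumors of 532.0 to 851.5 and a summed Hox CPM in tumor cells of eRT of 187.0 to 434.5. Of the counts and sums, 96 values stayed within these limits and 8 moved, all of them counts of tumor cells against other cells. The 96 include both comparisons between subtypes, where no Hox gene was called in any setting and a count of 0 cannot fall. They also include the Smarcb1 limit of 0.15, which left the number of cells of each kind unchanged. Of the levels and shares of single tumors, 44 stayed within the spread or interval and 17 moved: 2 sums, 5 shares after thinning and 10 shares with a tumor cluster on its own. Of the single genes, 952 values kept direction and call, 57 lost the call, 28 gained it and 2 changed sign: on the log2 scale, Hoxd10, eRT against MYC spinal tumor cells, lay between -1.78 and 2.31 and Hoxd9, eRT against MYC spinal tumor cells, between -1.96 and 0.77 as 1 tumor was left out, with the positive values without spinal 1 and no call in any of these fits. The cause was not tested. With the mouse strain as a covariate, 0 of 20 tested Hox genes were called between subtypes, and 7 of them, beside 272 of 8760 genes, had an unadjusted p under 0.05. The 15 tumor cells of spinal 2 and the 43 Hox UMIs of the jaw tumor limit what can be seen there.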
